A study of Mus musculus with 2 samples.

Results

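The Hsp70 family of chaperones was followed in olfactory bulb RNA of the mouse through 10 genes, taken by name from the array annotation: the stress-inducible Hspa1a and Hspa1b and the constitutively expressed Hspa1l, Hspa2, Hspa4, Hspa5, Hspa8, Hspa9, Hspa12a and Hspa13. They make up 10 of 37068 gene names and 21 of 56593 probes with a usable spot on both arrays. The bulb is the brain region where axons of the nasal sensory neurons end. Its RNA, amplified from an oligo-dT primer and labelled with Cy3, was measured on 1 array from a control mouse, kept in standard odor surroundings, and 1 array from a mouse kept in odor-enriched surroundings. Neither label names a genetic change or a drug, and the sources used here give no strain, age, sex, odor or length of enrichment. The tissue label speaks of neurons of the bulb, but the protocols hold no step that sorts cells.

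Hsp70 proteins bind stretches of other proteins that are exposed when these are unfolded, and release them in a cycle driven by ATP. J-domain proteins bring clients and start ATP hydrolysis, and nucleotide exchange factors reopen the chaperone. Most members are made at all times in the cytosol, the endoplasmic reticulum or the mitochondria, and in neurons the cytosolic form also strips clathrin from synaptic vesicles. Hspa1a and Hspa1b are nearly the same gene in duplicate, and heat shock factor 1 (HSF1) switches both on when cells are stressed, by binding heat shock elements in their promoters.

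The promoters are shown first because the 2 inducible genes, which had the largest differences of the family, share almost every base there. Each sequence holds the 250 bases before the transcription start in RefSeq (GRCm38.p6), 5′ to 3′ on the gene's own strand. Capitals mark matches to a 2-unit heat shock element (GAANNTTC) in Hspa1a and Hspa1b, and to an endoplasmic reticulum stress element (CCAAT and CCACG with any 9 bases between them) in Hspa5, the endoplasmic reticulum member. Hspa1a lies at chr17:34972157-34972406 and Hspa1b at chr17:34959239-34959488, both on the minus strand, and Hspa5 at chr2:34771840-34772089 on the plus strand.
Hspa1a: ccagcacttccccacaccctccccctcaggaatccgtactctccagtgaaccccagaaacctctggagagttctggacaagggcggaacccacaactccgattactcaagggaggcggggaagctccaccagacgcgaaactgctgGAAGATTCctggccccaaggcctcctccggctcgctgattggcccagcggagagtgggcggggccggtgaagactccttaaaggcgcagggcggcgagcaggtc
Hspa1b: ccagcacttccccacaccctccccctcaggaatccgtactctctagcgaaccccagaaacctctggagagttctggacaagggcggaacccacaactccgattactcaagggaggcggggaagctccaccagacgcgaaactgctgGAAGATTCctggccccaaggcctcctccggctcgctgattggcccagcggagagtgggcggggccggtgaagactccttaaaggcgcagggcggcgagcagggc
Hspa5: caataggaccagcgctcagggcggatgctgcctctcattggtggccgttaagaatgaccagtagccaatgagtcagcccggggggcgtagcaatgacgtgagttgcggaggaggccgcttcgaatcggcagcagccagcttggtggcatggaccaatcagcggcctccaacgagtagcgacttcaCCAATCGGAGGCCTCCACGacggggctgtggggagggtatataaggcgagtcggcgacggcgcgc
The Hspa1a and Hspa1b windows were identical at 247 of 250 bases (98.8%), and differed at positions -207, -204 and -2 from the start site. Both held the same element from -104 to -97. The table had a promoter for 7 of the 10 members, in 8 windows. GAANNTTC was in 2 of these 8, against 6.69% of 32851 mouse promoter windows of this length. These 2 are the nearly identical Hspa1a and Hspa1b windows, so they are not separate matches and the shares cannot be compared. The other arrangement, TTCNNGAA, was in 0 of the 8 members' windows and in 7.17% of all windows, and the 3-unit form, in which both arrangements overlap, was in 0 of the 8 and in 0.466% of all. The stress element of Hspa5 lay from -65 to -47, and 0.113% of all windows held it. Both strands were searched, and a match describes letters in these windows only.

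Each condition has a single array, which allows no test and limits the precision of every difference. Signals are given as Agilent processed intensities, and levels as log2 intensity minus the array's 75th percentile over probes, so 0 is the level of that percentile. All differences are odor enriched minus control, and a difference of 1 log2 unit is 2-fold. Each member probe was printed once per array, and 19 of the 21 were well above background on both arrays, so that all 10 members were measured. Repeat spots of 300 other probes gave an SD of 0.05 for the difference between arrays, and different probes of a gene an SD of 0.63 over 8234 genes. Neither covers the spread between mice. Both arrays lay on the same slide and were scanned separately, so position and scan cannot be told apart from the condition.

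The inducible pair was far higher in the odor-enriched bulb. The Hspa1a probe (NM_010479; chr17:35106766-35106825, minus strand, mm9) read 809 in the control against 8393 in the odor-enriched sample. The Hspa1b probe (NM_010478; chr17:35093374-35093405, minus strand, mm9) read 200.02 and 2854. Both probes were therefore brighter on the odor-enriched array, and each is the only probe of its gene. On the normalized scale the level of Hspa1a went from 1.69 to 5.38, a difference of 3.69 log2 units or 12.9-fold. The level of Hspa1b went from -0.32 to 3.82, a difference of 4.15 log2 units or 17.7-fold. The differences of the pair were 0.46 log2 units apart, less than the spread between probes of a gene, so their order is not resolved. The spots around them differed between arrays by a median of 0.59 (Hspa1a) and -0.04 (Hspa1b) log2 units. In bulk tissue, more cells of a type and more RNA per cell cannot be told apart.

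The paired probes differ in their letters. The longest run of bases that they share is 5, out of 60 in each, and no 2 probes of different members share a run longer than 9. The coordinates given for the Hspa1b probe cover 32 bases of the genome, so part of its sequence has no stated position. Neither probe was compared with the transcript of the other gene. Whether each probe read only its own gene was therefore not tested. Transcripts of the pair outside these probes were not measured.

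**Figure D1:**
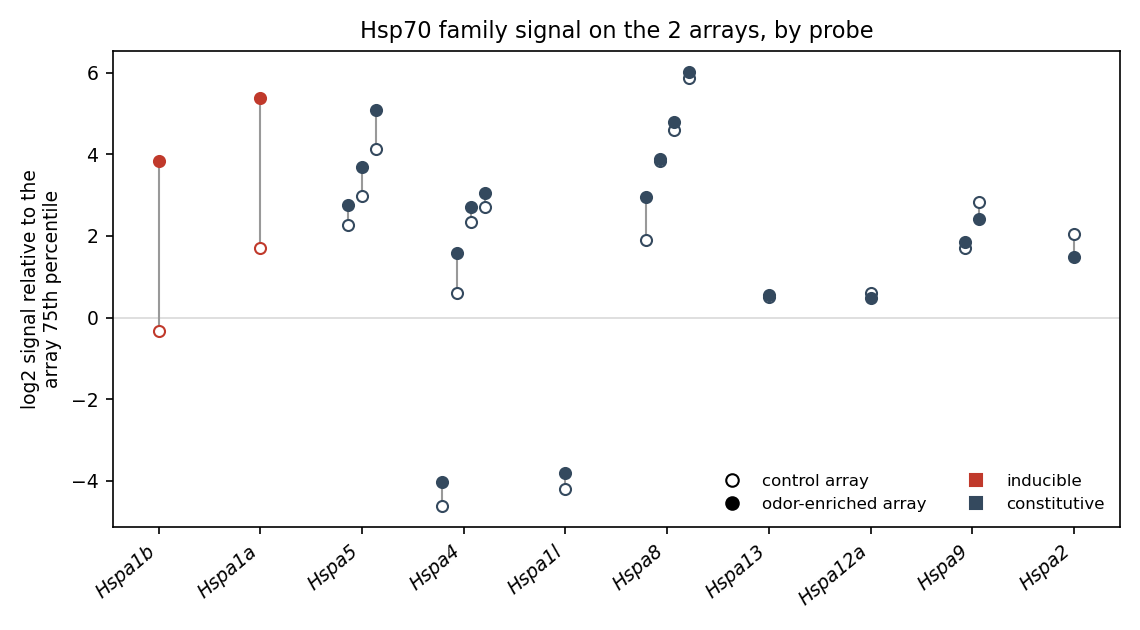
Levels of the 19 member probes above background, as log2 signal relative to each array's 75th percentile, on the control array (open) and the odor-enriched array (filled), with inducible members in red and constitutive members in blue. The single probes of Hspa1b and Hspa1a go from -0.32 to 3.82 and from 1.69 to 5.38, while the blue pairs lie close together. Heights of different probes cannot be compared.

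Next to the pair, genes differed by less than 2-fold. In RefSeq order the protein-coding genes of the cluster on chromosome 17 run Hspa1b, Hspa1a, Hspa1l, and Hspa1l, a relative known mainly from the testis, is read from the opposite strand. The Hspa1l probe (NM_013558; chr17:35115629-35115688, plus strand, mm9) was dim, at 13.5 and 14.5, a difference of 0.41. Of the 4 protein-coding neighbours on each side, 6 of 8 were measured under their RefSeq symbol. Against 17.0% of all genes, 0 of these 6 differed by 2-fold. They were Zbtb12 (-0.78), the histone methyltransferase gene Ehmt2 (-0.49), the sialidase gene Neu1 (0.02), the splicing factor gene Lsm2 (-0.26), D17H6S56E-5 (0.18) and Vars (-0.68). Hspa1a and Hspa1b were the only measured genes of this stretch past 2-fold, but with 6 measured neighbours the count says little.

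Of the 8 constitutive members, 0 differed by 2-fold, against 17.0% of all genes, and 5 lay above 0 and 3 below. Their differences ran from 0.72 for Hspa5 to -0.56 for Hspa2, with a median of 0.21. Neighbours in this order were at most 0.42 log2 units apart, within the 0.63 between probes of a gene, so the order of neighbours is not resolved. The whole range was 1.28 log2 units wide. The lowest inducible difference stood 2.97 above the highest constitutive one. The mean of the inducible pair was 3.92, which is 3.70 log2 units (13.0-fold) above the constitutive median. A shift of a whole array cancels in this contrast, so the scalings that are such shifts leave it at 3.70 by construction. Over all 15 alternative settings, it ran from 3.53, with looser filters on dim probes, to 3.85, against the constitutive members of at least median signal only.

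Hspa8 (Hsc70), the cytosolic form abundant in all cells and the one that uncoats clathrin vesicles, is read by 4 probes of NM_031165, printed here from the 5′ to the 3′ side of the transcript because the first differed from the rest. They lie on the plus strand of chromosome 9 (mm9), at chr9:40610620-40610679, chr9:40611362-40611421, chr9:40611841-40611900 and chr9:40612755-40613050, where the last span is longer than the probe. All letters are in lower case.
probe 1: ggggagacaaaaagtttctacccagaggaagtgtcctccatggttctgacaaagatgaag
probe 2: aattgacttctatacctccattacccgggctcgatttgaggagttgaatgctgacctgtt
probe 3: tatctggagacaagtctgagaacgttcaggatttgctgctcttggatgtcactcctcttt
probe 4: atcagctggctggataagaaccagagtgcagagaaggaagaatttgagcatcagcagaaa
Probe 1 read 933 on the control array and 1572 on the odor-enriched one, a difference of 1.06. Probes 2, 3 and 4 read 3561, 6039 and 14520 in the control against 2976, 5525 and 12924 in the odor-enriched sample, with differences of 0.05, 0.18 and 0.14. The first probe thus stood 0.94 above the mean of the other 3. The spots around probe 1 differed between arrays by a median of 0.46 log2 units. Around probes 2, 3 and 4 these medians were 0.07, 0.03 and 0.27. The part of the surroundings in the difference of probe 1 was not tested. The gene's difference was 0.36 over all 4 probes and 0.13 without the first, an alternative chosen after the values were seen.

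Among the organelle members Hspa5 had the largest difference. Hspa5 (BiP) is the chaperone of the endoplasmic reticulum lumen and a standard readout of the unfolded protein response. Its probes of NM_022310 on chromosome 2 (plus strand, mm9) start at 34630699, 34631136 and 34631913. From the 5′ to the 3′ side they read 1198, 1964 and 4361 in the control against 1358, 2585 and 6808 in the odor-enriched sample. All 3 were higher in the latter, by 0.49, 0.71 and 0.95, each under 2-fold, and the gene's mean was 0.72.

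Hspa9 (mortalin), which pulls proteins into mitochondria, had probes on both sides of 0. Its 2 probes read 1791 and 816 in the control against 1076 and 726 in the odor-enriched sample. Their differences of -0.42 and 0.14 average to -0.14. Hspa13 (Stch), a microsomal member without the usual client-binding part, read 352 and 297 with its main probe (NM_030201; chr16:75755568-75755627, minus strand, mm9), a difference of 0.06. Its other probe read 5.75 and 8.39 and was not well above background in the odor-enriched sample. That probe also lies where surrounding spots were brighter on the odor-enriched array, by a median of 1.58 log2 units, and it was not used. Both genes thus differed by less than the spread between probes of a gene.

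Hspa4 (Apg-2), an Hsp110-type relative that acts as a nucleotide exchange factor for other Hsp70s, was higher on all 4 of its probes, each by less than 2-fold. From the 5′ to the 3′ side on chromosome 11 (minus strand, mm9), the probes end at 53113121, 53078119, 53076501 and 53075144. The first, annotated to AK038627, read 377 and 601, a difference of 0.99. The second was dim, at 10.3 and 12.3, with 0.57. The last 2, both of NM_008300, read 1266 and 1638 in the control against 1311 and 1656, with differences of 0.36 and 0.33. The gene's mean was 0.56. Along the genome in the direction of transcription, the largest difference was thus at the 5′ side for Hspa4 and Hspa8 and at the 3′ side for Hspa5.

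Hspa2 and Hspa12a were slightly lower in the odor-enriched sample. Hspa2, which is required for male meiosis and is also made in brain, read 1029 and 561 (NM_008301; chr12:77507769-77507828, plus strand, mm9), a difference of -0.56 and the lowest of the family. Hspa12a, a distant member found mainly in neurons, read 377 and 279 (NM_175199; chr19:58870301-58870360, minus strand, mm9), a difference of -0.13. Its second probe, annotated to AK165073, was at background on both arrays, at 1.64 and 1.62. Both differences are smaller than the spread between probes of a gene. The spots around the 2 probes used differed between arrays by a median of 0.55 (Hspa2) and 0.71 (Hspa12a) log2 units. The part of these surroundings in the differences was not tested.

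**Figure D2:**
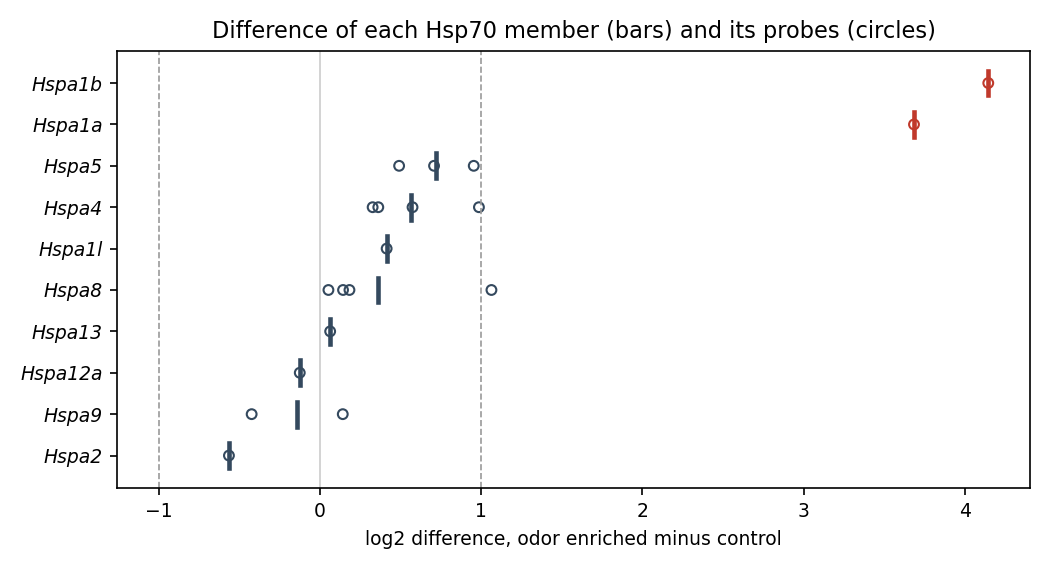
Log2 difference (odor enriched minus control) of each member as a bar and of its probes as circles, with dashed lines at 2-fold. Hspa1b (4.15) and Hspa1a (3.69) lie far right of the 8 constitutive members, whose bars run from -0.56 to 0.72. A single constitutive circle, the Hspa8 probe at 1.06, crosses the 2-fold line.

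Set against all genes, the count of members was near the background, while differences as large as the pair's were rare. Of 23872 genes measured on both arrays, 4064 (17.0%) differed by at least 2-fold, 2747 (11.5%) higher and 1317 (5.52%) lower in the odor-enriched sample. Of the 10 members, 2 were at least 2-fold higher and 0 lower, so the share of members past 2-fold says little. At 8-fold, a limit chosen after the values were seen, 288 genes (1.21%) were higher, among them both inducible members. Hspa1b was one of 53 genes (0.222%) with a difference at least as large as its own, and Hspa1a one of 113 (0.473%). The median was 0.39 over the members and 0.0016 over all genes. The constitutive members lay between the percentiles 17.1 (Hspa2) and 82.6 (Hspa5) of all genes.

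**Figure D3:**
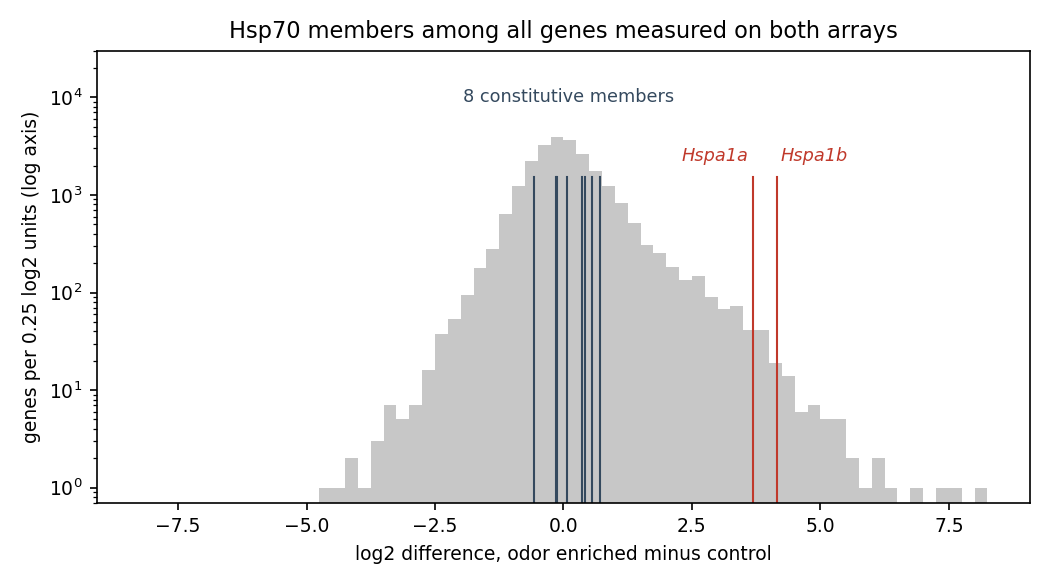
Number of genes per 0.25 log2 units of difference (log axis) among the 23872 measured genes, with lines for the inducible members in red and the constitutive members in blue. Hspa1a (3.69) and Hspa1b (4.15) stand in the sparse right flank, and the 8 constitutive members within the central peak.

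The scaling between arrays sets the sign of the smaller differences. In the 11 settings other than spike-in scaling, Hspa1a ran from 3.51 to 4.02 and Hspa1b from 3.71 to 4.48. Hspa13, Hspa9 and Hspa12a changed sign in some of these settings, and Hspa5 reached 2-fold (1.05) with the deposited series matrix values, which move the median of all genes by 0.33. The E1A spike-in controls, RNAs meant to be added in equal amount to each sample, were brighter on the odor-enriched array. Scaling on the median of 8 E1A probes moves the median of all genes by -1.76. Hspa1a then stood at 1.92 and Hspa1b at 2.38, still higher by over 2-fold. All 8 constitutive members were then at least 2-fold lower, from -1.04 (Hspa5) to -2.33 (Hspa2), so their sign is relative to the bulk of genes.

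**Figure D4:**
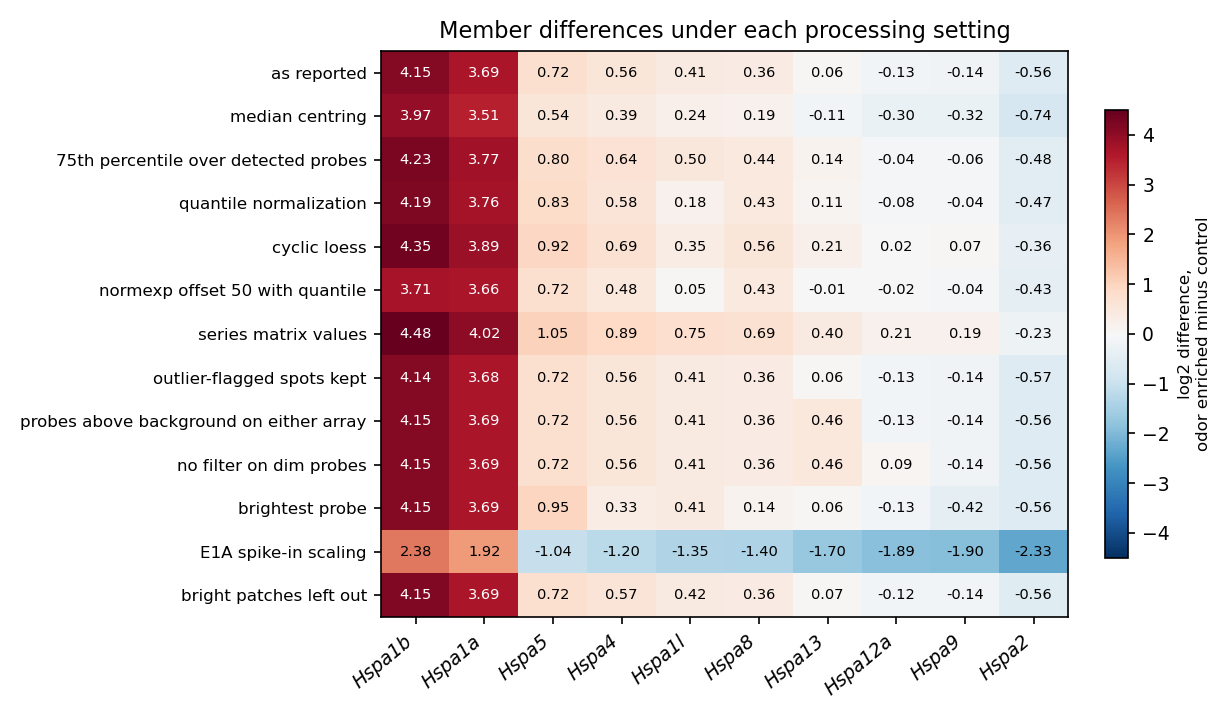
Log2 difference (odor enriched minus control) of each member, in columns, under each setting, in rows, with red for higher and blue for lower in the odor-enriched sample. Hspa1b and Hspa1a stay red in every row, from 1.92 to 4.48, and the 8 constitutive members turn blue together with E1A spike-in scaling.

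Most genes of the wider chaperone system lay within 2-fold. Over 11 lists of partners and relatives, 133 of 141 genes were measured, and their median was -0.09. The odor-enriched sample was higher by 2-fold or more for 7 (5.26%) and lower for 2, against 11.5% and 5.52% of all genes. With E1A scaling, 0 were higher and 122 lower, so these directions too are relative to the bulk of genes. These lists were drawn up with earlier results of these data known, and several genes stand in more than 1 list. Hspa12b, the sister of Hspa12a made mainly by endothelial cells, stood at 1.33 (264 in the control, 535 in the odor-enriched sample). The exchange factors Hsph1 (-0.21) and Hspa4l (0.03), the ribosome-linked Hspa14 (-0.07) and the reticulum form Hyou1 (0.73) were under 2-fold. Hspa12b was the only one of these 5 past 2-fold. Probes of Hsph1, Hspa4l and Hspa14 lay on both sides of 0.

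Of 25 genes that HSF1 is known to activate, other than the members, 3 were at least 2-fold higher and 0 lower, with a median of 0.05. As a share, 3 of 25 is near the 11.5% of all genes that were higher. Hspb1 (Hsp27), a small heat shock protein of stressed cells and of smooth muscle, read 2012 and 8491, a difference of 2.39. Hmox1, the haem-degrading oxygenase that also answers to oxidative stress, stood at 2.06, with probes at 1.31 and 2.81. The probe at 2.81 was dim, at 5.84 and 32.9, while the one at 1.31 read 742 and 1483. The J-domain partner Dnajb1 (Hsp40) read 2638 and 4545, a difference of 1.10. Other standard heat shock genes were under 2-fold: Hsph1 (-0.21), Hsp90aa1 (-0.47), Hspd1 (-0.45), Hspe1 (0.18), Dnaja1 (0.22), Hsp90ab1 (0.40) and the collagen chaperone Serpinh1 (0.75). The exchange factor Bag3, a strong HSF1 target, was lower at -0.83, and Cryab stood at -0.73. Of the 25, 14 lay above 0 and 11 below.

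The transcription factors themselves differed little. Hsf1 stood at -0.24, Hsf2 at 0.21, Hsf4 at -0.32, the binding protein Hsbp1 at -0.06 and Hsf2bp at 0.57, so 0 of 5 passed 2-fold. The probes used for Hsf4 (25.6 and 16.5) and Hsf2bp (16.4 and 19.7) were dim. Hsf3 was at background on both arrays, and Hsf5 was above it on the control array only, too dim for a bound.

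Among the J-domain proteins, Dnajb1 was the single gene of 15 in classes A and B past 2-fold. Dnajb8 (0.97, from a dim probe at 13.7 and 21.6) and Dnajb9 (0.90) were next, and Dnajb2 (-0.53) and Dnaja3 (-0.52) were lowest. Dnajb13, a sperm and cilium form, was above background in the control only, at least 4.29-fold higher there (a bound against the lowest detected level of the other array). Of 28 in class C, Dnajc2 (1.04) was the single gene past 2-fold, followed by Dnajc10 (0.59). Dnajc1 (-0.81) and Dnajc17 (-0.79) were lowest. The spots around the Dnajc2 probe differed between arrays by a median of 1.04 log2 units, as much as the gene itself. That value was under the limit set for bright patches, so leaving such patches out kept the probe. The part of its surroundings in the Dnajc2 difference was not tested. The median was 0.22 for classes A and B and -0.29 for class C, whose Dnajc6, the auxilin that recruits Hspa8 to clathrin coats, stood at 0.40. Dnajc5, the cysteine string protein of synaptic vesicles, had probes on both sides of 0: both RefSeq probes were lower, at -0.21 and -0.30, and a dim one from Ensembl higher, at 1.46. Dnajc5b was above background in the control only, too dim for a bound.

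Exchange factors, Hsp90 cochaperones and small heat shock proteins each held 1 or 2 genes past 2-fold. Of 13 exchange factors, Bag4 was lower (-1.07) and 0 were higher, with Hyou1 (0.73) and Sil1 (0.35) at the top. The Bag4 probe read 47.3 in the control and was dim in the odor-enriched sample, at 18.2. All 4 probes of Hyou1 were dim, from 11.6 to 23.4 in the control and from 13.6 to 35.4 in the odor-enriched sample. The value of Sil1 rests on a dim probe at 1.38, while its brightest probe stood at -0.01 and another at -0.32. Of 19 Hsp90 genes and cochaperones, Unc45b, the myosin chaperone of muscle, was higher at 2.61 (90.9 and 449), with Hsp90b1 (0.55) next. Fkbp5, a cochaperone of steroid receptors, was lower at -1.64, with 2 probes at -1.65 and -1.63, and Cdc37 (-0.57) was next. Of 9 small heat shock proteins, Hspb1 (2.39) and Hspb7 (2.24), a form of heart and muscle, were higher. Lowest were Hspb3 (-0.95) and Cryab (-0.73). The Hspb7 probe used was dim in the control, at 23.7, and read 90.5 in the odor-enriched sample. The lens protein gene Cryaa was above background in the control only, too dim for a bound. The medians of these lists were -0.11, -0.09 and 0.05. With normexp background correction Hspb7 and Hmox1 were under 2-fold, at 0.97 and 0.94. Dnajb1 (0.92) and Dnajc2 (0.86) were under 2-fold with median centring, and Dnajc2 (0.98) with normexp. Bag4 was under 2-fold with normexp (-0.43), with the series matrix values (-0.74) and with the 75th percentile over detected probes (-0.99).

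Partners of the organelle members also lay within 2-fold. Of 24 reticulum chaperones and unfolded protein response genes, 0 passed 2-fold, with a median of 0.22, beside 0.72 for Hspa5. Ddit3 (0.95, with probes at 0.34 and 1.56) and Dnajb9 (0.90) were highest, and Xbp1 (-0.47, with probes from -0.75 to 0.06) and Dnajc3 (-0.37) lowest. Of 16 genes of mitochondrial import and folding, 0 passed 2-fold, with a median of -0.30, beside -0.14 for Hspa9. Tomm20 (0.21) and Hspe1 (0.18) were highest and the proteases Clpp (-0.75) and Lonp1 (-0.55) lowest. The 11 chaperonin genes had a median of -0.17, from -0.54 for Cct6a and -0.48 for Cct2 to 0.05 for Tcp1 and 0.18 for Hspe1. The 2 probes of Cct6a disagreed, at -1.26 and 0.19, and those of Tcp1 ran from -0.63 to 0.56.

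**Figure D5:**
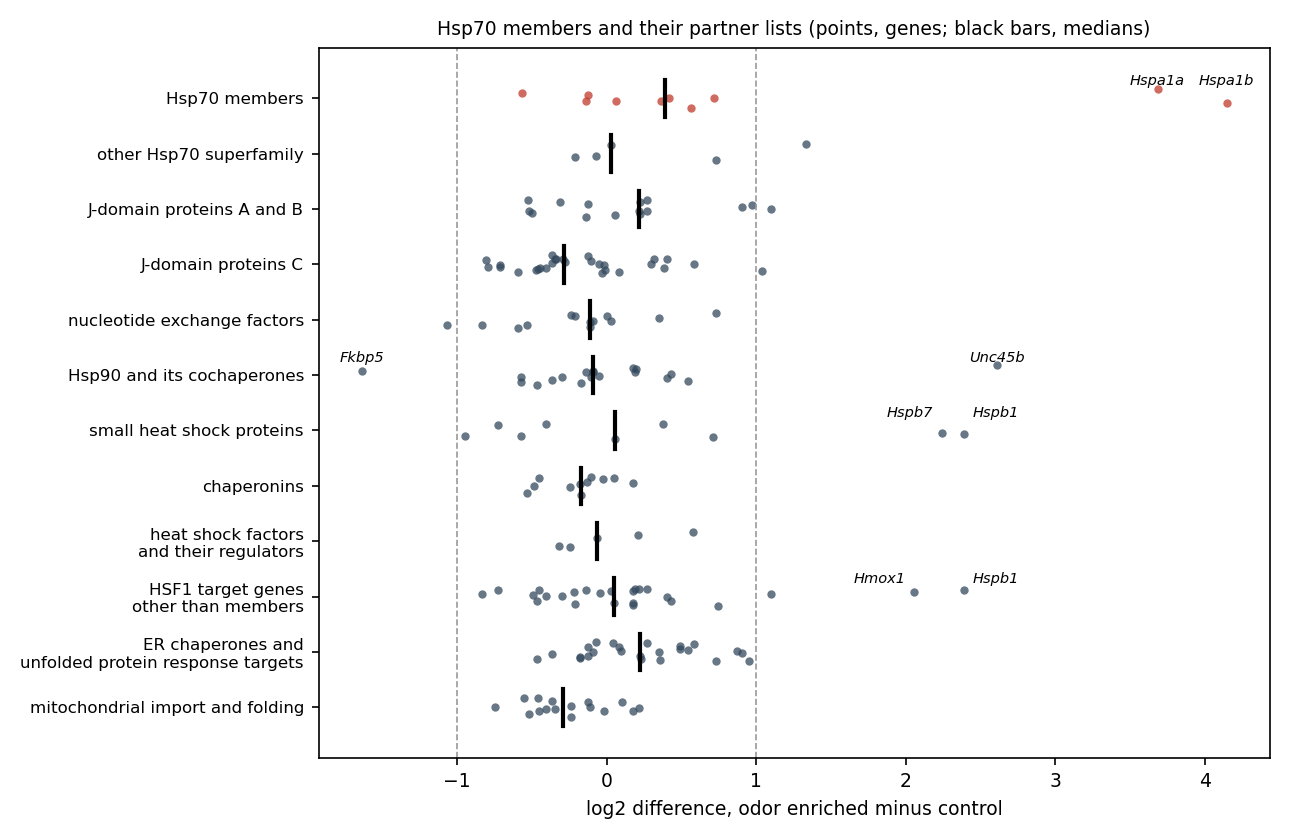
Log2 difference (odor enriched minus control) of each measured gene in the Hsp70 family (red) and in its partner lists (blue), with the median of each list as a black bar and dashed lines at 2-fold. The list medians lie between -0.30 and 0.39, and the points beyond 2 log2 units to the right are Hspa1a, Hspa1b, Unc45b, Hspb1, Hspb7 and Hmox1.

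Markers of the cells in the samples differed between them. Markers of the bulb's own neurons were detected in both: all 10 markers of granule and periglomerular cells and all 7 mitral and tufted markers on the array were above background on both arrays. The counts that follow are of markers past 2-fold. Over all genes 11.5% were higher and 5.52% lower. Of 10 endothelial markers 8 were higher in the odor-enriched sample, led by Emcn (3.10), and their summed level went from 5.55 to 7.02 log2 units. Of 8 mural cell markers 6 were higher, led by Kcnj8 (2.56), with a summed level of 5.92 and 6.14. Of 10 T and NK cell markers 9 were higher, led by Klrg1 (6.43), from 0.77 to 4.60. Of 8 monocyte and macrophage markers 4 were higher, led by Plac8 (3.21), from 5.66 to 7.38. Of 11 olfactory sensory neuron markers 8 were lower, with Omp at -2.68, from 9.34 to 7.36, and Rtp1 was above background in the control only, at least 1.61-fold higher there. Of 9 ensheathing cell markers 6 were lower, of 7 astrocyte markers 2 lower, of 7 oligodendrocyte markers 2 higher, of 6 erythroid markers 3 higher, of 8 microglia markers 1 higher and of 6 neuroblast markers 1 higher. Of the granule and periglomerular markers 0 passed 2-fold, and of the mitral and tufted markers 3 were lower and 1 higher. The lower ones were Doc2g (-1.84), Slc17a7 (-1.67) and Cdhr1 (-1.40), and the higher one was Tbx21 (3.11). Which cells the Tbx21 signal came from was not tested. With E1A scaling the median of endothelial markers was 0.11 in place of 1.87 and that of mural markers 0.22 in place of 1.99, while that of T and NK cell markers was 2.23. The part of these cells in the differences of Hspa1a, Hspa1b, Hspb1 and Hspa12b was not tested.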

How the data were processed

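Per the file headers, the authors extracted the intensity of each spot with Agilent Feature Extraction 11.5.1.1 (processed signal: background subtracted, then detrended). The deposited series matrix holds log2 values, which are the log2 processed signals shifted by a fixed amount on each array, of unstated origin. The matrix medians were -9.48 (control) and -8.98 (odor enriched).

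Here, outlier-flagged spots were left out (122 and 183), log2 signals of a probe's spots averaged, and the 75th percentile over probes subtracted (7.97 and 7.66 log2 units). No spot was saturated, and 73.7% and 67.6% of the 59305 non-control spots were well above background. Probes well above background on both arrays were averaged into a gene's value. With 1 array per group no test was run.

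The members and lists were chosen with earlier results of these data known. The rule named every member, the 2 highest and 2 lowest genes of each list, all distant relatives and heat shock factors, and each list gene past 2-fold. Cell markers are given here by counts and their leading gene, and 1 partner gene is not reported here. Chosen after values were seen were the median over E1A probes (1 of 8 deviates), Hspa8 without a probe, and each partner gene counted once. All 17 member probes with a RefSeq accession matched the same symbol in the RefSeq table (GRCm38.p6). Probe positions come from the files (mm9). Exon and UTR positions were not analysed here.

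The alternatives changed the scaling (median, 75th percentile over detected probes, quantile, cyclic loess, E1A spike-ins), the background correction (normexp with an offset of 50, then quantile), the source of values, the outlier flags, the filter on dim probes, the choice of probe, bright patches (139 spots whose surrounding 9 by 5 spots had a median difference over 1.2 log2 units) and the threshold (1.5-fold, 3-fold). The calculation was tested on simulated data. It used Python 3.11.15, numpy 2.4.6, pandas 2.3.3, matplotlib 3.10.9, R 4.3.3 and limma 3.58.1.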

Additional observations from a re-analysis of the deposited data

How the results depend on the processing

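No paired analysis was possible because each condition has 1 array, and no replicate could be left out for the same reason. A value was taken to move when it changed by more than 0.63 log2 units, the SD between probes of a gene, and a count when it changed by more than 1.5 times. The contrast of inducible and constitutive members did not move, and the count of members at least 2-fold higher was 2 or 3 in the 14 alternatives run. The count of members at least 2-fold lower was 0 except with E1A scaling, where it was 8.

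The 2747 genes at least 2-fold higher became 1194 with normexp, 4466 with the series matrix values, 9379 with no filter on dim probes, 374 with E1A scaling, 5072 at 1.5-fold and 1286 at 3-fold. The 1317 genes at least 2-fold lower became 2061 with median centring, 501 with normexp, 582 with the series matrix values, 2380 when 1 array above background was enough, 2294 with no filter, 19970 with E1A scaling, 3891 at 1.5-fold and 330 at 3-fold. The 7 partner genes at least 2-fold higher became 4 with normexp, 14 with the series matrix values, 0 with E1A scaling, 15 at 1.5-fold and 4 at 3-fold. The 2 lower became 4 with median centring, 1 with the 75th percentile over detected probes, 1 with normexp, 1 with the series matrix values, 4 with the brightest probe, 122 with E1A scaling, 12 at 1.5-fold and 1 at 3-fold. E1A scaling turned the median of monocyte and macrophage markers from 1.01 to -0.75 and that of erythroid markers from 1.02 to -0.74, and it turned Hspa12b to -0.43, Dnajb1 to -0.67 and Dnajc2 to -0.72. Of 288 values of 24 list medians, 261 did not move, 25 moved, and 2 turned from at least 2-fold higher to lower. Those 2 are the marker medians just named. Medians near 0 also changed sign, which is not counted apart from moving or not moving. That of small heat shock proteins did so in 5 of 12 settings, and that of HSF1 targets in 4 of 12. Apart from the scaling and the threshold itself, the cause of these changes was not tested.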
